A study of Mus musculus with 6 samples.

Results

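The 10 genes Ccl3, Ccl4, Ccl5, Ccl6, Ccl9, Ccl11, Ccl17, Ccl20, Ccl22 and Ccl24 encode CC chemokines of lung inflammation other than the ligands of CCR2. They were chosen by name, each was read by 1 microarray probe matched through its RefSeq name, and 9 of them were among the 16440 genes tested. The arrays measured RNA of CD45-negative lung cells, the structural fraction left when leukocytes are depleted, from wild-type (WT) C57BL/6J mice and from Ccr2KO mice of the strain B6.129S4-Ccr2tm1Ifc/J, which lack the monocyte receptor CCR2 throughout the body. The mice were 7 to 9 weeks old at the start. In each genotype cells were taken from untreated mice (day 0) and at 28 and 40 days after aspiration of silica, the mineral dust that causes silicosis. After enzymatic digestion of the perfused lungs, a Percoll gradient took out red cells and silica, and magnetic sorting gave the CD45-negative cells. Each of the 6 groups gave a single array, hybridised with RNA from 3 pooled biological replicates, and the spread between animals is therefore not seen.

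Chemokines are small secreted proteins that bind receptors on leukocytes and direct their movement along a gradient. CCL3, CCL4 and CCL5 draw monocytes, T cells and NK cells, and the rodent proteins CCL6 and CCL9 act through CCR1. CCL17 and CCL22 recruit T helper 2 and regulatory T cells through CCR4, the eotaxins CCL11 and CCL24 recruit eosinophils through CCR3, and CCL20 recruits dendritic cells and T helper 17 cells through CCR6. In lung, CCL11 is made largely by fibroblasts and other structural cells, while many of the others are made mostly by macrophages, dendritic cells and lymphocytes.

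Values are processed signals on the log2 scale, set against the 75th percentile of the same array, and can be compared between arrays for 1 gene but not between genes. Ccr2, the targeted gene, read 0.09, 1.38 and −1.70 on the WT arrays of untreated, day 28 and day 40 cells, the order used throughout, and −5.07, −1.51 and −3.64 on the Ccr2KO arrays. Its probe was well above background on every array, those of Ccr2KO cells included. Ccr2KO was below WT at each time, but Ccr2KO day 28 read above WT day 40. What the probe detects in Ccr2KO cells was not tested. Leukocyte transcripts were present in every sample despite the CD45 depletion: all 12 of 12 pan-leukocyte genes, Ptprc (CD45) among them, were well above background on every array. Their summed level relative to the 75th percentile was 107, 264 and 54.6 on the WT arrays and 51.9, 193 and 39.4 on the Ccr2KO arrays, highest at day 28 in both genotypes. The fibroblast, epithelial and endothelial markers of the structural fraction were likewise all detected on every array. Between 58.2 and 64.4% of probes per array were well above background, and no spot was saturated. In RNA from many cells, fewer cells of a type and less RNA per cell cannot be told apart.

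At day 28 every tested gene of the list read higher than in untreated cells of both genotypes, and 6 of the 9 tested genes rose with both genotypes together (Ccl3, Ccl4, Ccl9, Ccl11, Ccl17 and Ccl24), against 9.17% of all tested genes. At day 40 Ccl11 passed and the other 8 did not, against 8.5% of all genes that rose. Ccl24 passed the filter on dim probes through its silica arrays, had to differ for that reason, and is given below by bounds. Of the 7 genes well above background on every array, 5 rose at day 28 and 1 at day 40. Their median difference was 1.89 on the log2 scale at day 28 and 0.35 at day 40, beside −0.051 and 0.02 over all genes. For the mean of both days against untreated, 4 of the 9 genes rose (Ccl4, Ccl11, Ccl17 and Ccl24), against 10.5% of all genes. In each genotype alone, 1 array against 1, 8 of the 9 genes were at least 2-fold above untreated at day 28, all but Ccl5 in WT and all but Ccl11 in Ccr2KO cells, against 8.36 and 8.73% of all genes. At day 40 in WT cells Ccl11 and Ccl24 were at least 2-fold above untreated (2 of 9, against 7.17%) and Ccl6 at least 2-fold below (1 of 9, against 4.84%). At day 40 in Ccr2KO cells Ccl3, Ccl6 and Ccl11 were at least 2-fold above untreated (3 of 9, against 8.52%). In these counts an array not well above background stood at whichever was higher of its own signal and the lowest signal that any probe had well above background on it, and a pair with neither array above background was not counted. A gene was called at an adjusted p below 0.05 in a limma fit of day and genotype over all 6 arrays, which leaves 2 residual degrees of freedom. The 6 arrays lay in 2 rows of 1 slide, with both untreated arrays and the Ccr2KO day 28 array in row 1. With slide row as a block none of the 9 genes, and no gene at all, passed, and within row 1 alone the 6 genes that rose at day 28 were higher in Ccr2KO cells at day 28 than untreated by between 0.86 and 2.87. All 6 day 28 calls also ended when either day 28 array was left out (adjusted p from 0.145 to 0.232). For the mean of both days the 4 calls ended in the same way, and in the genotype by silica fit Ccl11 alone kept its call. Without Ccr2KO day 40 only Ccl17 passed, and leaving out Ccr2KO untreated ended the call of Ccl4, WT untreated that of Ccl11 and WT day 40 that of Ccl24. With slide row as a block the mean of both days was above untreated by 1.91 in place of 3.24 for Ccl24 and by 0.81 in place of 1.29 for Ccl11.

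**Figure D1:**
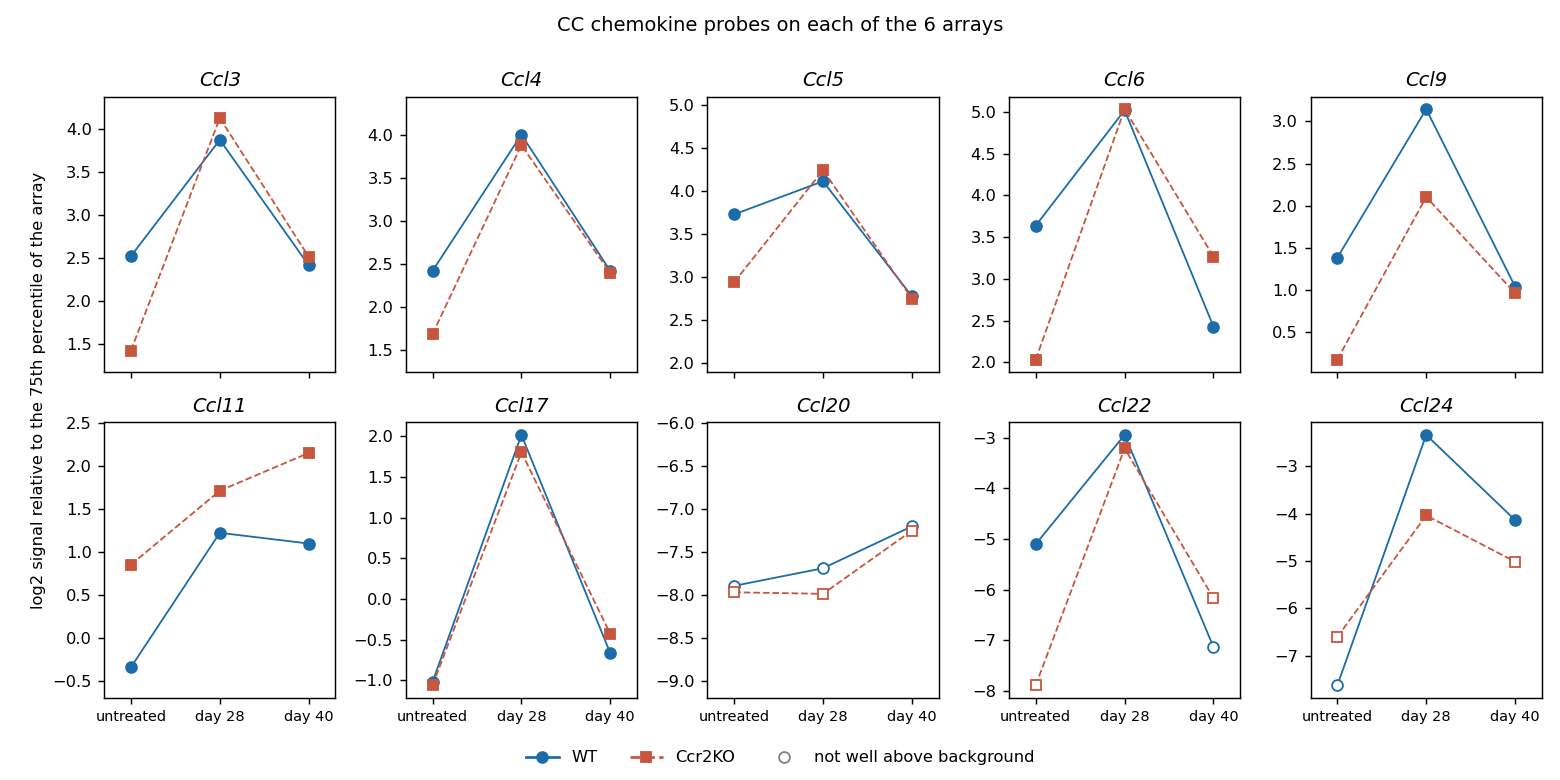
Each panel plots 1 gene's log2 signal above or below its array's 75th percentile (vertical axis) for untreated, day 28 and day 40 cells, with WT as circles and Ccr2KO as squares, 1 array per point and open symbols not well above background. The panels of Ccl3, Ccl4, Ccl5, Ccl6, Ccl9, Ccl17 and Ccl22 peak at day 28 in both genotypes, and that of Ccl24 does too, with dim arrays. At day 40 Ccl11 (all arrays above background) and Ccl17 read above their untreated values in both genotypes, and Ccl24 in WT cells.

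Ccl17, a CCR4 ligand, had the rise with the smallest standard error of the 9 tested genes. It read −1.02, 2.02 and −0.67 on the WT arrays and −1.06, 1.80 and −0.43 on the Ccr2KO arrays. Both day 28 arrays stood above all 4 others, and at each time the genotypes lay within 0.24 of each other. Ccl17 rose by 2.95 ± 0.15 at day 28 (log2 difference ± SE, a 7.73-fold change, limma adjusted p = 0.00847, n = 2 arrays per day) and then fell by 2.46 ± 0.15 from day 28 to day 40 (adjusted p = 0.0147). At day 40 it was 0.49 ± 0.15 above untreated, which did not pass (adjusted p = 0.106). The fall to day 40 lost its call without any 1 of the 4 silica arrays (adjusted p from 0.0659 to 0.239), although the difference stayed between −2.64 and −2.27.

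Ccl22, the other CCR4 ligand, lies near Ccl17 on chromosome 8, with Cx3cl1 as the only protein-coding gene between them in the RefSeq order. It was detected well above background on 3 arrays, WT untreated (−5.10), WT day 28 (−2.95) and Ccr2KO day 28 (−3.21). The readings of −7.13 in WT day 40, −7.88 in Ccr2KO untreated and −6.16 in Ccr2KO day 40 cells were not well above background. Day 28 was again the highest time in both genotypes: Ccl22 read at least 5.45-fold higher at day 28 than untreated in Ccr2KO cells and at least 3.77-fold higher than at day 40 in WT cells, 1 array against 1. Such a bound places the dimmer array as in the counts above. Across genotypes the day 28 difference from untreated was 3.41 ± 0.94 and did not pass (adjusted p = 0.0811), a value that includes a dim untreated array. Without WT untreated, which leaves only the dim one, it was 4.98 and passed (adjusted p = 0.0198), and without Ccr2KO untreated it was 1.85. Day 28 over day 40 came to at least 3.52-fold, and the fitted difference, which used the dim day 40 signals, did not pass (adjusted p = 0.198). With normexp background correction, which adds an offset to dim signals, the day 28 difference was 1.32 and passed (adjusted p = 0.0042).

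The 250 bases upstream of the start of Ccl17 and of Ccl22 are shown because the pair are neighbours that both read highest at day 28 in both genotypes. They come from a table of RefSeq promoters on GRCm38.p6, in which 6 of the 10 genes were matched (Ccl3, Ccl6, Ccl9, Ccl17, Ccl20 and Ccl22). Capitals mark matches to TTCNNNNGAA, the spacing bound by STAT6, and to TTCNNNGAA, the GAS element bound by other STAT proteins. The Ccl17 window is chr8:94810203-94810452 and the Ccl22 window chr8:94745434-94745683, both on the plus strand and both read 5′ to 3′.
Ccl17: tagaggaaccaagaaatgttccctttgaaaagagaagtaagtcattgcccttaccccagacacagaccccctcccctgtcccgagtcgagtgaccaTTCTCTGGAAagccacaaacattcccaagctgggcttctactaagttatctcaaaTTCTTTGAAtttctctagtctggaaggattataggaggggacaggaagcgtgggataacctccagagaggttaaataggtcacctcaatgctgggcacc
Ccl22: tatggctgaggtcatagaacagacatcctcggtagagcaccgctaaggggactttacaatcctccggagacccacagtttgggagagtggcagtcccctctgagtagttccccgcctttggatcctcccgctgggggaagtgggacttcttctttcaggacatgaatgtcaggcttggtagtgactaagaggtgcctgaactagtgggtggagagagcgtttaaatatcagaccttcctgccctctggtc
The Ccl17 window held 1 STAT6 match, which begins 154 bases before the start, and 1 GAS match, which begins 99 bases before it, without overlap. The Ccl22 window held neither of these, nor the NF-kappaB motif, AP-1 (TGANTCA) or TATAAA. Searched on both strands, TTCNNNNGAA occurred in 5.85% and TTCNNNGAA in 7.02% of 32851 windows of the same length. A match of letters is a description and not a binding site.

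The eotaxin gene Ccl11 was higher than in untreated cells at both times, and it was the one tested gene of the list that passed at day 40. It read −0.34, 1.22 and 1.09 on the WT arrays and 0.85, 1.71 and 2.15 on the Ccr2KO arrays. Both silica arrays of each genotype were above the untreated array of that genotype, and Ccr2KO was above WT at every time. Ccl11 rose by 1.21 ± 0.21 at day 28 (adjusted p = 0.0322) and by 1.37 ± 0.21 at day 40 (adjusted p = 0.0283), and the 2 times differed by 0.16 ± 0.21 (adjusted p = 0.738). The day 40 call was lost without any 1 array except Ccr2KO untreated (adjusted p from 0.0781 to 0.132), and with slide row as a block the day 40 difference was 0.73 (adjusted p = 0.454). The day 28 call was lost without any 1 of the 6 arrays (adjusted p from 0.0546 to 0.164).

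Ccl24, also an eotaxin gene, was not well above background in untreated cells of either genotype. Its readings were −7.63, −2.33 and −4.13 on the WT arrays and −6.61, −4.04 and −5.01 on the Ccr2KO arrays, of which both untreated arrays and Ccr2KO day 40 were not well above background. The 3 arrays with a signal were the day 28 arrays and WT day 40. Ccl24 rose at least 5.41-fold at day 28 (means −3.19 and −7.12). The limma adjusted p of 0.0331 used untreated signals not well above background. As the gene passed the filter through silica arrays alone, this p is no support for the rise. The day 40 mean came to 2.07-fold over untreated, with the untreated arrays placed as in the counts above. This is no lower bound, since Ccr2KO day 40 was itself not well above background. The fitted day 40 difference did not pass (adjusted p = 0.0834). In WT cells alone the day 40 bound was at least 2.73-fold, and without Ccr2KO untreated the fitted day 40 difference was 3.70 in place of 2.54 and passed (adjusted p = 0.022). By genotype, the day 28 bounds were at least 9.49-fold in WT and at least 3.08-fold in Ccr2KO cells. The day 28 call was lost without either day 40 array (adjusted p = 0.0522), and the fitted difference was 1.31 with normexp in place of 3.93.

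The macrophage inflammatory protein genes Ccl3 and Ccl4, neighbours on chromosome 11, moved closely together. Ccl3 read 2.52, 3.87 and 2.41 on the WT arrays and 1.42, 4.12 and 2.51 on the Ccr2KO arrays. Ccl4 read 2.42, 4.0 and 2.42 on the WT arrays and 1.69, 3.88 and 2.40 on the Ccr2KO arrays. For both genes the day 28 arrays stood above all others, Ccr2KO untreated was the lowest array, and the day 40 values of the genotypes nearly coincided. At day 28 Ccl3 rose by 2.03 ± 0.37 (adjusted p = 0.0371) and Ccl4 by 1.89 ± 0.21 (adjusted p = 0.0161). At day 40 the differences from untreated were 0.49 ± 0.37 and 0.35 ± 0.21 (adjusted p = 0.404 and 0.311). In WT cells the day 40 values lay within 0.11 of the untreated ones, whereas in Ccr2KO cells Ccl3 was 1.09 and Ccl4 0.71 above. The Ccl3 call at day 28 was lost without either day 40 array (adjusted p = 0.0533).

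Ccl5, a ligand of CCR1 and CCR3 made largely by T and NK cells, had the narrowest range of the 7 genes detected on every array. It read 3.73, 4.11 and 2.78 on the WT arrays and 2.94, 4.24 and 2.75 on the Ccr2KO arrays. The day 28 arrays were the highest, but WT untreated lay only 0.38 below WT day 28. Neither the day 28 difference (0.84 ± 0.26, adjusted p = 0.103) nor the day 40 difference (−0.57 ± 0.26, adjusted p = 0.209) passed. The mean of both days differed from untreated by 0.14 ± 0.23 (adjusted p = 0.69). Both day 40 arrays read below the untreated array of their genotype, by 0.95 in WT and by 0.19 in Ccr2KO cells. Without WT untreated the day 28 difference was 1.26 and passed (adjusted p = 0.0294). Without Ccr2KO untreated it was 0.42, the day 40 difference of −0.99 passed as lower (adjusted p = 0.0498) and the mean of both days was −0.28.

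Ccl6 and Ccl9, the rodent CCR1 ligand genes, lie side by side between Ccl5 and Ccl3 on chromosome 11. Ccl9 read 1.38, 3.15 and 1.04 on the WT arrays and 0.17, 2.10 and 0.96 on the Ccr2KO arrays, and Ccl6 read 3.64, 5.02 and 2.43 on the WT arrays and 2.03, 5.03 and 3.27 on the Ccr2KO arrays. Day 28 was the highest time for each gene in each genotype. Ccl9 rose by 1.85 ± 0.32 at day 28 (adjusted p = 0.0315), a call lost without Ccr2KO untreated (adjusted p = 0.0906), and was 0.22 ± 0.32 above untreated at day 40 (adjusted p = 0.65). For Ccl6 the day 28 difference of 2.19 ± 0.61 did not pass (adjusted p = 0.0846) and the day 40 difference was 0.01 ± 0.61 (adjusted p = 0.991). That value averages opposite changes, since Ccl6 at day 40 was 1.21 below untreated in WT and 1.23 above untreated in Ccr2KO cells. Without WT untreated the day 28 difference of Ccl6 was 3.21 and passed (adjusted p = 0.0219), and without Ccr2KO untreated it was 1.18 and did not (adjusted p = 0.113).

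The upstream windows of this adjacent pair are shown for comparison, as both genes read highest at day 28. Both are on the minus strand of GRCm38.p6, Ccl9 at chr11:83578637-83578886 and Ccl6 at chr11:83593088-83593337, and capitals mark matches to the NF-kappaB motif, to AP-1 (TGANTCA) and to TATAAA on either strand.
Ccl9: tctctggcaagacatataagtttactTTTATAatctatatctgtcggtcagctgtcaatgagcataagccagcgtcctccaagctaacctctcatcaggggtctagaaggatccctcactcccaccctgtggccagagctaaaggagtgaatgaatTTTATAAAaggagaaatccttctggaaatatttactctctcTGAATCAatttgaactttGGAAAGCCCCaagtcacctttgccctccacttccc
Ccl6: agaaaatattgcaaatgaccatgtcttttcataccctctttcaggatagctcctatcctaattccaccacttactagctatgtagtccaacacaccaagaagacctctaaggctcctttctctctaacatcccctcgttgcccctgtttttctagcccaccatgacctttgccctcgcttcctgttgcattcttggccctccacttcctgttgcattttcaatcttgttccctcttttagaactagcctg
The Ccl9 window held an NF-kappaB match that begins 35 bases before the start, an AP-1 match that begins 53 bases before it and 3 TATAAA matches, a pair of which overlap each other on opposite strands. The Ccl6 window held no match to any of the 5 motifs, nor did that of Ccl3, and that of Ccl20 held 1 NF-kappaB match. Over all 32851 windows the NF-kappaB motif occurred in 3.9%, AP-1 in 6.75% and TATAAA in 12.4%.

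The CCR6 ligand gene Ccl20 was not well above background on any array, and it was therefore not tested. Its processed signals were 4.96, 5.62 and 5.96 on the WT arrays and 3.87, 3.85 and 5.2 on the Ccr2KO arrays, against a lowest signal well above background of 19.1 to 30.2 on these arrays. No order of the groups can be read from such values.

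From day 28 to day 40 the direction was downward for all tested genes but Ccl11. Only Ccl17 passed, and it fell, beside 2.52% of all tested genes that fell and 0.201% that rose. Of the 9 genes, 8 were at least 2-fold lower at day 40 than at day 28 in WT cells (all but Ccl11, against 4.53% of all genes) and 7 in Ccr2KO cells (all but Ccl11 and Ccl24, against 3.93%). In the fit 7 had an unadjusted p below 0.05. The median over the 7 genes detected on every array was −1.53, beside 0.098 over all genes. Ccl4 (−1.53 ± 0.21, adjusted p = 0.0564) had the next lowest adjusted p, and Ccl5, Ccl9, Ccl3 and Ccl6 lay between −2.18 and −1.41 with adjusted p from 0.102 to 0.222. Ccl4 passed with normexp, with an intensity trend and robust prior, with the authors' value table and over genes above background on all 6 arrays (adjusted p from 0.0111 to 0.0357). Within row 2 of the slide, which holds both WT silica arrays, WT day 40 was below WT day 28 by 1.58 for Ccl4 and by 2.68 for Ccl17.

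**Figure D2:**
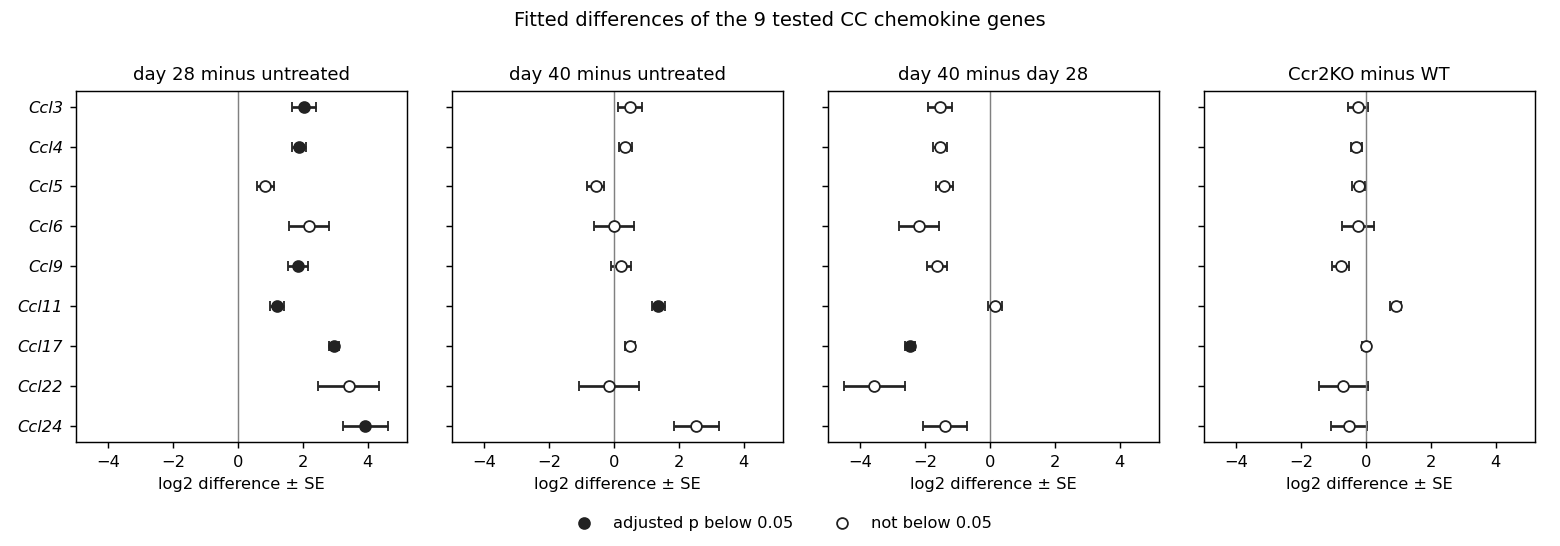
Points give the fitted log2 difference and bars its standard error for the 9 tested genes in 4 comparisons over 6 arrays, with filled points at an adjusted p below 0.05. The values of Ccl22 and Ccl24 include arrays not well above background. Filled points are 6 genes at day 28, Ccl11 at day 40 and Ccl17 from day 28 to day 40, and none for Ccr2KO minus WT.

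Between Ccr2KO and WT cells no difference of the 9 genes passed, and neither did any of the 16440 genes (limma, 0% called, 1526 genes at an unadjusted p below 0.05). Ccl11 came closest: it was higher in Ccr2KO cells by 1.19 untreated, 0.49 at day 28 and 1.05 at day 40, with a fitted difference of 0.91 ± 0.17 (adjusted p = 0.395, n = 3 arrays per genotype). The untreated and day 40 differences were each within 1 slide row. Ccl9 was lower in Ccr2KO cells at all 3 times, by 1.21, 1.04 and 0.08, with a fitted difference of −0.78 ± 0.26 (adjusted p = 0.526). These 2 genes alone among the 9 had an unadjusted p below 0.05. Fibroblast markers, 7 of 7 detected on every array, averaged 4.68, 5.26 and 5.2 on the WT arrays and 4.87, 5.33 and 5.68 on the Ccr2KO arrays, and their part in the Ccl11 difference was not tested.

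In untreated cells alone, 1 array against 1 on the same slide row, 3 of the 9 genes read at least 2-fold lower in Ccr2KO than in WT (Ccl3, Ccl6 and Ccl9, against 2.32% of all genes) and 1 at least 2-fold higher (Ccl11, against 1.62%). Ccl22 read at least 1.47-fold higher in WT, and Ccl24 had no signal above background in either. Ccl6 read lower by 1.60 and Ccl3 by 1.1. The pan-leukocyte genes averaged 2.48 in WT and 1.47 in Ccr2KO untreated cells, and their part in these differences was not tested. At day 28 Ccl9 and Ccl24 were at least 2-fold lower in Ccr2KO cells (0.949% of all genes). Those arrays lay in different slide rows, so genotype and row cannot be told apart there. At day 40, within the same row, Ccl11 alone was at least 2-fold higher (2.36%). The difference between the genotypes' silica responses had an adjusted p of 1 for every one of the 9 genes and was called for 0% of all genes (618 at an unadjusted p below 0.05).

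The day 28 peak of the chemokine genes coincided with that of leukocyte transcripts, and the 2 were set side by side. Of the 12 pan-leukocyte genes 11 rose at day 28 (9.17% of all genes did) and all 12 fell from day 28 to day 40 (2.52%). Their mean was above untreated by 1.26 in WT and 1.86 in Ccr2KO cells at day 28 and was 1.02 and 0.47 below untreated at day 40. Relative to this mean, Ccl17 was higher than untreated by 1.78 at day 28 and 1.37 at day 40 in WT and by 1.0 and 1.1 in Ccr2KO cells. Ccl11 relative to the same mean was 2.46 and 1.77 higher at day 40 (WT and Ccr2KO), but only 0.30 higher in WT and 1.0 lower in Ccr2KO cells at day 28. Ccl5 relative to it was lower at day 28 by 0.88 and 0.56, and at day 40 within 0.28 of untreated. For Ccl3 the relative change was 0.09 in WT and 0.84 in Ccr2KO cells at day 28, and 0.91 and 1.56 at day 40. For Ccl4 it was 0.32 and 0.33 at day 28 and 1.02 and 1.18 at day 40, and for Ccl9 0.51 and 0.071 at day 28 and 0.68 and 1.26 at day 40. For Ccl6 it was 0.12 and 1.14 at day 28 and −0.19 and 1.70 at day 40. Of the 7 genes detected on every array, all but Ccl6 in WT cells thus stood higher against the leukocyte mean at day 40 than in untreated cells. The part of leukocyte transcripts in the chemokine differences was not tested.

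Markers of single blood cell types were read in the same way. Beside the counts that follow, 9.17% of all tested genes rose and 8% fell at day 28, and 2.52% fell from day 28 to day 40. Of 7 measured neutrophil genes, 6 rose at day 28 and 6 fell from day 28 to day 40. Their summed level was 209, 398 and 153 on the WT arrays and 176, 476 and 174 on the Ccr2KO arrays. That sum includes Csf3r, which did not pass and read 7.16, 6.56 and 6.60 on the WT arrays and 6.61, 6.60 and 6.49 on the Ccr2KO arrays. Of the 4 B cell genes 1 rose at day 28, 3 fell from day 28 to day 40 and 3 were lower than untreated at day 40 (6.71% of all genes were), with a summed level of 18.5 to 22.4 at day 28 and 1.88 to 10.7 on the others. All 4 platelet genes fell for the mean of both days (9.28% of all genes did), from a summed level of 9.56 and 9.74 untreated to between 2.50 and 3.38 after silica. The 7 measured dendritic cell genes, of cells that make CCL17 and CCL22, included 4 that rose at day 28, and averaged 1.15 and 1.20 above untreated at day 28 in WT and Ccr2KO cells, with a summed level of 49.1 and 30.8 at day 28 and of 7.66 to 17.4 on the other arrays. Macrophage genes, 10 measured, of which 2 rose at day 28 and 1 fell, averaged 0.57 and 1.72 above untreated at day 28, with a summed level of 40.6 to 65.0 at day 28, 57.7 and 24.1 untreated and 16.1 to 16.4 at day 40, and Msr1 was not above background in WT day 40 and Ccr2KO untreated cells. The 12 measured T and NK cell genes were detected on every array and 5 rose at day 28, with a summed level of 59.9 and 60 at day 28 and 25.6 to 47.4 on the others. Of the 6 eosinophil genes, which include the CCR3 gene, Epx was not above background in the 3 WT samples and in Ccr2KO untreated cells, and Prg2 was not in WT untreated cells. Prg2 alone of the 6 rose at day 28, and their summed level was between 1.11 and 6.49. The part of these cell types in the results was not tested.

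**Figure D3:**
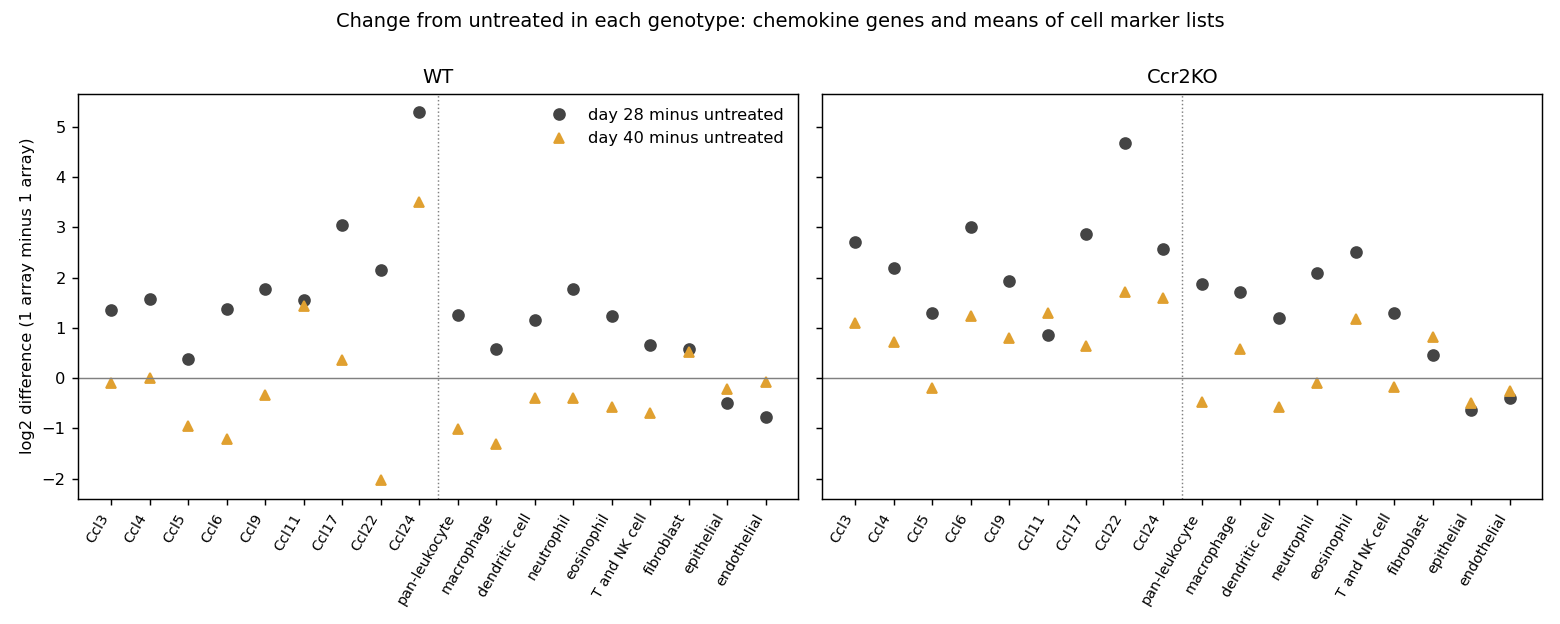
Log2 difference of the day 28 array (circles) and the day 40 array (triangles) from the untreated array of the same genotype, for the 9 tested chemokine genes (left of the dotted line) and for the mean of each marker list (right of it), with WT and Ccr2KO in separate panels. Pan-leukocyte genes averaged 1.26 and 1.86 above untreated at day 28 and below untreated at day 40, whereas Ccl11 was above untreated at both times. Values of Ccl22 and Ccl24 include arrays not well above background.

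The receptor genes of these ligands also read highest at day 28, each of them in both genotypes. Of the 5 receptor genes read here, all tested, 3 passed as higher at day 28 (9.17% of all genes rose), Ccr6 (1.85 ± 0.17, adjusted p = 0.013), Ccr4 (1.60 ± 0.29) and Ccr1. Ccr1 was well above background on the 2 day 28 arrays alone, passed the filter through them, and had to differ for that reason. It was at least 5.83-fold higher at day 28 than untreated and at least 3.53-fold higher than at day 40. From day 28 to day 40 Ccr6 fell by 2.89 ± 0.17 (adjusted p = 0.0147). Ccr4, not well above background at day 40, read at least 4.38-fold higher at day 28. The limma adjusted p of 0.0278 for the fall of Ccr4 used those dim day 40 signals and does not belong to the bound. At day 40 Ccr6 was below untreated (−1.03 ± 0.17, adjusted p = 0.0334, against 6.71% of all genes that fell), and the other 4 did not pass. Ccr3 (1.40 ± 0.35, adjusted p = 0.0686) and Ccr8 (1.12 ± 0.28, adjusted p = 0.0696) did not pass at day 28. These receptors are carried mainly by leukocytes, whose transcripts peaked at day 28 as given above, and the part of leukocytes in the receptor differences was not tested.

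Genes for 5 other proteins, receptors of the decoy and scavenging kind and a peptidase, were read as well. Ackr1, which encodes a scavenging receptor of erythrocytes and venular endothelium that binds CCL5, CCL11 and CCL17 among others, read −2.82, 1.02 and 1.94 on the WT arrays and −1.61, 1.16 and 1.97 on the Ccr2KO arrays. It rose by 3.31 ± 0.34 at day 28 (adjusted p = 0.0138) and by 4.17 ± 0.34 at day 40 (adjusted p = 0.0126). Endothelial markers averaged 4.58, 3.81 and 4.50 on the WT arrays and 4.28, 3.88 and 4.02 on the Ccr2KO arrays. The part of endothelial cells or erythrocytes in the Ackr1 difference was not tested. Dpp4, the peptidase that trims CCL5, CCL11 and CCL22, fell by 1.34 ± 0.14 at day 28 (8% of all genes fell) and by 1.66 ± 0.14 at day 40 (6.71%). Ccrl2, a receptor without signalling activity, rose by 0.62 ± 0.12 at day 28 (adjusted p = 0.0371) and was 0.20 below untreated at day 40, a difference of −0.83 between the days that did not pass (adjusted p = 0.0564). Ackr2 (−0.26 ± 0.16) and Ackr4 (−0.94 ± 0.49), also scavengers, did not pass for the mean of both days.

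Among the remaining CC chemokine genes, 9 of 10 were tested and 6 rose for the mean of both days, against 10.5% of all genes. These were Ccl8 (3.58 ± 0.61), Ccl7 (2.72 ± 0.34), Ccl2 (2.30 ± 0.23), Ccl1, Ccl12 and Ccl19, and 1 gene, Ccl27a, fell (9.28% of all genes did). At day 40, 4 of the 9 rose (Ccl2, Ccl7, Ccl8 and Ccl19, against 8.5% of all genes), compared with Ccl11 alone among the 9 tested genes of the list described here, and this difference in counts was not tested. From day 28 to day 40 none of the remaining 9 passed, with a median of 0.32 beside −1.53 for the 9 tested genes of the list. Ccl11 lies on chromosome 11 between Ccl7 and Ccl12.

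**Figure D4:**
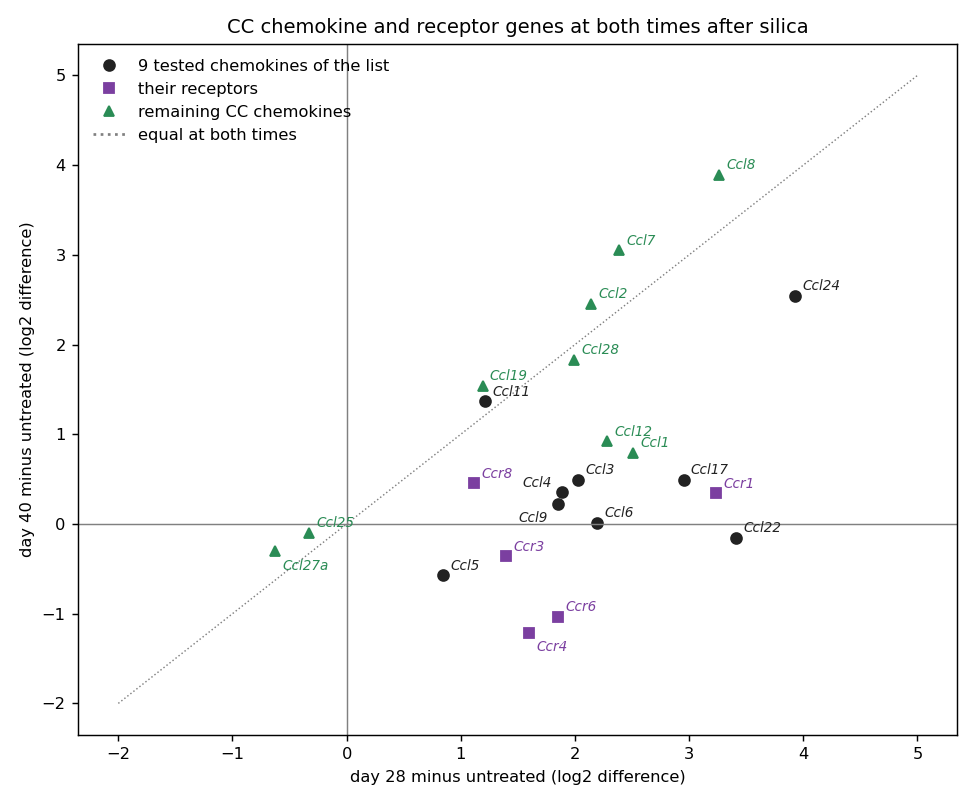
Fitted log2 difference from untreated at day 28 (horizontal) and at day 40 (vertical) for the 9 tested chemokine genes (circles), 5 receptor genes (squares) and the 9 remaining CC chemokine genes tested (triangles), each over 6 arrays, with the dotted line at equal differences. Ccl11 lies close to the line (1.21 and 1.37), and the other 8 listed genes lie below it. The values of Ccl22, Ccl24, Ccr1, Ccr4, Ccl1 and Ccl28 include arrays not well above background.

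Genes that are known to induce these chemokines, or that answer the same cytokines, were read from lists of their own. Of the type 2 list, the IL-4 and IL-13 axis that induces CCL11, CCL17 and CCL24, 18 of 19 genes were tested and 8 rose for the mean of both days (10.5% of all genes did), with none passing as lower. Among them were Itln1 (4.43 ± 0.11), Retnla (3.25 ± 0.38) and Postn (1.78 ± 0.29). Retnlb was above background on the 4 silica arrays alone and at least 3.53-fold higher there, and Il13 itself rose by 0.67 ± 0.10 (adjusted p = 0.0226). From day 28 to day 40 none of the 18 passed. Of 11 type 17 and innate genes 4 rose for the mean of both days, again against 10.5% (Il17a 2.69 ± 0.12, Il1b 1.26 ± 0.10, Il17ra 0.59 ± 0.12 and Il23a). Il17a, Il1b and Il23a fell from day 28 to day 40 (2.52% of all genes did). Il23a, above background at day 28 alone, passed the filter through those arrays and had to differ for that reason in both counts. It was at least 2.93-fold higher at day 28 than untreated and at least 1.77-fold higher than at day 40. For the mean of both days it came to 1.15-fold over untreated, which is no lower bound, since its day 40 arrays were not well above background. Of 10 NF-kappaB feedback genes 3 rose, also against 10.5% (Nfkbie 1.27 ± 0.14, Nfkb2 0.90 ± 0.12 and Relb 0.87 ± 0.13), and these also passed at each time alone.

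Likeness of pattern was measured, as a description, by the root mean square difference of log2 profiles over the 6 arrays, each profile centred on its own mean, for the 7 listed genes above background on all 6. Among themselves Ccl3 and Ccl4 were the closest pair (0.17), and Ccl11 was the farthest from the others, by 0.96 to 1.26. Of the remaining CC chemokines Ccl19 (0.35) and Ccl2 (0.53) had the profiles nearest to that of Ccl11. Over all genes the 3 nearest to Ccl11 were Ror2 (0.13), Nat8f5 (0.15) and Car13 (0.17). Those nearest to Ccl17 were Clec4d (0.12), Acod1 (0.15) and Dcstamp (0.19). For Ccl4 they were Cfp, Cotl1 and Aldh1b1 (0.13 to 0.15), and for Ccl3 Pik3r5, Bcl11a and Cotl1 (0.19 to 0.22). For Ccl9 they were Ccr9, Aif1 and Cfp (0.16 to 0.24), for Ccl5 Scml4, Arrb2 and Slc38a1 (0.11 to 0.15), and for Ccl6, the least closely matched of the 7, Tmem273, Alox5 and Ltb4r1 (0.27 to 0.32).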

How the data were processed

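Per the labels, each of the 6 RNAs was pooled from 3 biological replicates, labelled with Cy3 and hybridised to 1 one-colour Agilent array. Per the file headers, the authors used Feature Extraction 11.0.1.1 to obtain background-subtracted intensity, while the submitters' processing notes also name R 2.15.1. The deposited value table held log2 intensity of 30574 probes, unscaled between arrays (column medians 9.23 to 9.82) and equal to the scanner values within 5e-09. It was used as an alternative.

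From the scanner files, control and outlier spots were left out, spots of a probe averaged, and log2 intensity lowered by the array's 75th percentile. Probes were named through RefSeq accessions (27509 of 55681 with 1 symbol). A gene was its brightest probe among those that at least 2 of 6 arrays showed well above background. The 16440 genes were tested with limma 3.58.1 in R 4.3.3 (lmFit, eBayes, files read with the package data.table, version 1.17.8, Benjamini-Hochberg adjusted p below 0.05) in an additive fit of day and genotype, and in a genotype by silica fit for the difference of responses. With pooled RNA the p-values measure only what the fit left unexplained, and 6 arrays limit the precision. The script was tested on simulated data.

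All 10 genes are named. Of the other lists every receptor gene is given except 1 that is not reported here, and otherwise up to 4 members with the largest change among those that passed, with a few more (Il13, and each chemokine that rose) named after their values were seen. The genes and lists were chosen with earlier results of these data known. The comparisons of day 28 and of day 40 with untreated were added after seeing the data. Alternatives were normexp (offset 50, on median signals, as mean signals were not used here), quantile normalization, the value table, no filter or a filter on all 6 arrays, the mean of probes, every probe alone, an intensity trend with a robust prior, leaving out each array, slide row as a block, and the genotype by silica fit.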

Additional observations from a re-analysis of the deposited data

Results flagged for a closer look

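For 2 genes the Ccr2KO minus WT difference had 1 sign in untreated cells and the opposite sign at both times after silica. Ccl3 was lower in Ccr2KO than in WT cells untreated (−1.10) and slightly higher at day 28 (0.25) and day 40 (0.10), a difference of silica responses of 1.27 ± 1.37 (log2, limma adjusted p = 1). Ccl6 was lower untreated (−1.60) and higher at day 28 (0.01) and day 40 (0.84), a difference of responses of 2.03 ± 1.96 (adjusted p = 1). Neither passed the test of the difference, and each value is 1 array against 1.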

How the results depend on the processing

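The p-values rest on 2 residual degrees of freedom, or 1 with an array left out or slide row as a block. No paired analysis was possible because each group had 1 array. Ccl20, and Ccl22 and Ccl24 on 3 arrays each, were too dim to measure. The difference of silica responses could not be fitted without either untreated array.

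Among the 9 tested genes of the list (10 without a filter), the count that rose for the mean of both days was 4 and became 7 with normexp, 2 without a filter, 0 with slide row as a block and 1 in the genotype by silica fit, and 0 to 6 with 1 array left out. At day 28 the count of 6 became 2 without a filter, 0 with slide row and 0 to 8 with 1 array left out. At day 40 the count of 1 became 0 without a filter and with slide row, and 0 to 2 with 1 array left out. From day 28 to day 40 the count of 1 lower gene became 5 with normexp, 2 with the authors' value table, 2 with all 6 arrays above background, 3 with the trend and robust prior, 0 with slide row and 0 to 6 with 1 array left out. Without a filter the calls of Ccl4 and Ccl24 for both days (adjusted p = 0.0533 and 0.0627), of Ccl3, Ccl9, Ccl11 and Ccl24 at day 28 (0.062 to 0.0705) and of Ccl11 at day 40 (0.0562) ended. Over all genes, the count for both days was 3249 and became 1877 without a filter, 1233 in the genotype by silica fit and 0 with slide row. At day 28 it went from 2823 to 1422 without a filter, at day 40 from 2500 to 1236, and from day 28 to day 40 from 448 to 233, with 701 under normexp and 674 under the trend and robust prior, and 0 with slide row in each. With 1 array left out these 4 counts had highest values of 1964, 2063, 1602 and 685 and lowest values of 0. For Ccr2KO minus WT the count of 0 became 1 under normexp, with all 6 arrays above background and with the trend and robust prior. None of the listed genes passed there or in the difference of responses under any alternative run.

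Differences that changed sign had not passed the test. With 1 array left out, the mean of both days for Ccl5 ranged from −0.28 to 0.56. At day 40 the same ranges were −0.14 to 1.13 for Ccl3, −1.0 to 1.03 for Ccl6, −0.30 to 0.75 for Ccl9 and −1.72 to 1.41 for Ccl22, and from day 28 to day 40 −0.16 to 0.47 for Ccl11. At day 40 Ccl6 also read −0.0089 with normexp, −0.071 with quantile normalization and −0.021 with the value table, Ccl9 −0.18 with slide row, and Ccl22 0.22 with normexp and 0.49 with slide row. Ccl11 from day 28 to day 40 was −0.16 with slide row. For Ccr2KO minus WT the ranges with 1 array left out were −0.50 to 0.18 for Ccl3, −0.41 to 0.051 for Ccl5, −0.80 to 0.42 for Ccl6, −0.13 to 0.10 for Ccl17, −1.52 to 0.35 for Ccl22 and −1.29 to 0.0715 for Ccl24. In the genotype by silica fit these were 0.18 for Ccl3, 0.051 for Ccl5, 0.42 for Ccl6, 0.012 for Ccl17 and 0.35 for Ccl22. With slide row Ccl17 was 0.10 and Ccl24 0.0715, and Ccl17 was 0.030 with normexp and 0.015 with quantile normalization. For the difference of responses the ranges were −0.13 to 1.45 for Ccl4, −0.40 to 1.70 for Ccl9 and −1.29 to 1.40 for Ccl17, and with slide row Ccl4 was −0.082 and Ccl17 −1.06. The cause of these changes was not tested, and fewer arrays or degrees of freedom are part of several alternatives.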
